A study of Homo sapiens with 18 samples.

Results

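Binding of TLE3 was compared with binding of FOXA1 in T47D, an established line of luminal, estrogen receptor positive breast cancer cells, from the peak lists of 4 ChIP-seq libraries out of 12 in the series. The groups were T47D cells immunoprecipitated for TLE3 (2 replicates) and T47D cells immunoprecipitated for FOXA1 (2 replicates). No treatment or genetic change is named for either, and the input samples were not analysed here. Overlapping peaks (at least 1 bp) of a factor were merged, and merged regions reached by both of its replicates were taken as its sites, which gave 28354 TLE3 sites and 112670 FOXA1 sites from 387866 of the 1134209 peaks of the series. The labels call the replicates biological without saying how they were grown, so p-values measure the spread between these libraries. TLE3 cells received an additional crosslinker before formaldehyde, and the antibodies came from Proteintech for TLE3 and Diagenode for FOXA1, so differences between the factors and between the immunoprecipitations cannot be told apart.

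TLE3 is a corepressor of the Groucho family. It does not bind DNA itself but is brought to chromatin by partner transcription factors, among them RUNX, HES, TCF/LEF and forkhead proteins, and it recruits histone deacetylases. FOXA1 is a forkhead pioneer factor that binds its motif in closed chromatin, and in luminal breast cells it makes enhancers accessible to the estrogen receptor. The design asks how far binding of both proteins coincides in luminal breast cancer.

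The promoters shown first are those where both proteins ranked highest among promoters picked for holding a forkhead motif. They are not typical, as 10.97% of promoters with sites of both factors held such a motif. Their G+C over 300 bases was 42.3% to 52.7%, against a median of 66% for promoters with both factors. The stretches are reference sequence from RefSeq (GRCh38.p14, the build of the peak lists), written 5′ to 3′ on the strand of the gene and ending at or before the annotated start. Capitals mark the forkhead motif, searched on both strands in its main form TGTTTAC, in a form that FOXA proteins also bind, TATTTAC, and in a further form of the forkhead family, TGTTTGC. In some of the promoters it is therefore seen as its reverse complement. IGF1 encodes insulin-like growth factor 1, RHOH a small GTPase of haematopoietic cells, EHF and SPDEF epithelial ETS transcription factors, and DNPEP an aspartyl aminopeptidase. FAM107B is named without a role.
IGF1 (chr12:102481943-102481997, minus strand): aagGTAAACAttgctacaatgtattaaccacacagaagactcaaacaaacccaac
RHOH (chr4:40190907-40191003, plus strand): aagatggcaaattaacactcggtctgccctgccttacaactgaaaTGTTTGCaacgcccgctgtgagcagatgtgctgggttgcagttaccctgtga
EHF (chr11:34632325-34632421, plus strand): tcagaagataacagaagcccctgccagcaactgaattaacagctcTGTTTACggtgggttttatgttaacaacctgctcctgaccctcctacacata
SPDEF (chr6:34556330-34556423, minus strand): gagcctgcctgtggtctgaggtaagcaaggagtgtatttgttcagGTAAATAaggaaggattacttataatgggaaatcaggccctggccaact
FAM107B (chr10:14572136-14572232, minus strand): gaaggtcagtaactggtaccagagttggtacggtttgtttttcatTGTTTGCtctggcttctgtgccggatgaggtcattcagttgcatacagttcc
DNPEP (chr2:219400199-219400257, minus strand): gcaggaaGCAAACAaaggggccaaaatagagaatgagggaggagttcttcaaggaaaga

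For contrast, 2 promoters are shown as the 100 bases before the start, those of highest TLE3 rank with no forkhead motif among promoters whose TLE3 site met no FOXA1 site. MYRIP encodes a linker of RAB27A to myosin and BNIP3 a mitophagy receptor. No capitals are used because these windows hold none of the forkhead motifs, which was a condition of their choice.
MYRIP (chr3:39808814-39808913, plus strand): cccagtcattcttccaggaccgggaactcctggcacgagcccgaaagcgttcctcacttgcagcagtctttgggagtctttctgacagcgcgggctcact
BNIP3 (chr10:131981924-131982023, minus strand): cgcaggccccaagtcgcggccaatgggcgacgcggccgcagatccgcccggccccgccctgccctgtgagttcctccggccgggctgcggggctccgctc

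At IGF1 the TLE3 site (chromosome 12, 102481393 to 102482529) reached the 99.94 percentile of TLE3 replicate 1 and the 99.96 percentile of TLE3 replicate 2 by the authors' peak score, and the FOXA1 site the 99.3 and 99.5 percentile of FOXA1 replicates 1 and 2. At EHF the TLE3 site lay at the 99.0 and 99.3 percentile and the FOXA1 site at the 99.6 and 99.2 percentile. At SPDEF, whose motif begins 49 bases before the start, the TLE3 site (chromosome 6, 34555724 to 34556813) lay at the 97.8 and 99.4 percentile and the FOXA1 site at the 99.8 and 99.9 percentile. At MYRIP the TLE3 site (chromosome 3, 39808869 to 39810218) lay at the 98.3 and 99.5 percentile, with no peak in either FOXA1 list. A percentile of 100 is the highest scored peak of a list, and scores were compared only within a list.

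TLE3 had fewer peaks than FOXA1. The TLE3 lists held 30170 and 61391 peaks in replicates 1 and 2, and the FOXA1 lists held 147283 and 149015. Both TLE3 lists were shorter than both FOXA1 lists, with a log2 ratio of TLE3 to FOXA1 of −1.78 (two-sided exact permutation test over libraries, p = 0.333). With 2 libraries against 2 this is the smallest p that the 6 arrangements can give, so no comparison of the factors below can pass 0.05, and with 2 libraries split by the other factor the smallest is 0.5. The TLE3 libraries differed more from each other than the FOXA1 libraries did. Of the peaks of TLE3 replicate 1, 96.8% were met by replicate 2, and 46.3% of the peaks of replicate 2 by replicate 1, while for FOXA1 these shares were 77.4% and 76.8%. Site ranks were similar between replicates for both factors, with a Spearman correlation of 0.87 over the TLE3 sites and 0.84 over the FOXA1 sites, a description over sites that share libraries. Depth is unknown, as the lists hold no counts of reads.

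TLE3 peaks lay near gene starts more often than FOXA1 peaks. Within 1 kb of an annotated start lay 14.3% and 16.5% of TLE3 peaks (replicates 1 and 2), against 8.23% and 6.80% of FOXA1 peaks. The groups did not overlap. The means were 15.4% ± 1.58 for TLE3 and 7.52% ± 1.02 for FOXA1 (SD, n = 2 each), so that TLE3 was 7.85 percentage points higher (exact permutation p = 0.333). The median distance to a start was 25084 and 23178.5 bp for TLE3 replicates 1 and 2, and 33317 and 35181.5 bp for FOXA1 replicates 1 and 2. With every list reduced to its 20000 highest scored peaks, the shares near a start were 11.01% and 11.9% for TLE3 and 7.76% and 8.14% for FOXA1, so the groups again did not overlap. The difference was then 3.48 points. Chromosome 8 is not part of these values, as the table of starts used here holds none for it. The table lists starts for 15812 of 19974 protein-coding genes, so some peaks at unlisted starts on other chromosomes can be missed.

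TLE3 peaks were also less often far from any start, while the shares inside genes were close. Inside protein-coding genes lay 48.8% and 49.7% of TLE3 peaks and 47.5% and 47.1% of FOXA1 peaks, and the difference of 1.93 percentage points (exact permutation p = 0.333) was 0.29 among the 20000 highest scored peaks, where the groups overlapped. More than 50 kb from any start lay 31.7% ± 0.461 of TLE3 peaks and 39.9% ± 0.808 of FOXA1 peaks (SD, n = 2 each). Exons and introns were not separated here.

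**Figure D1:**
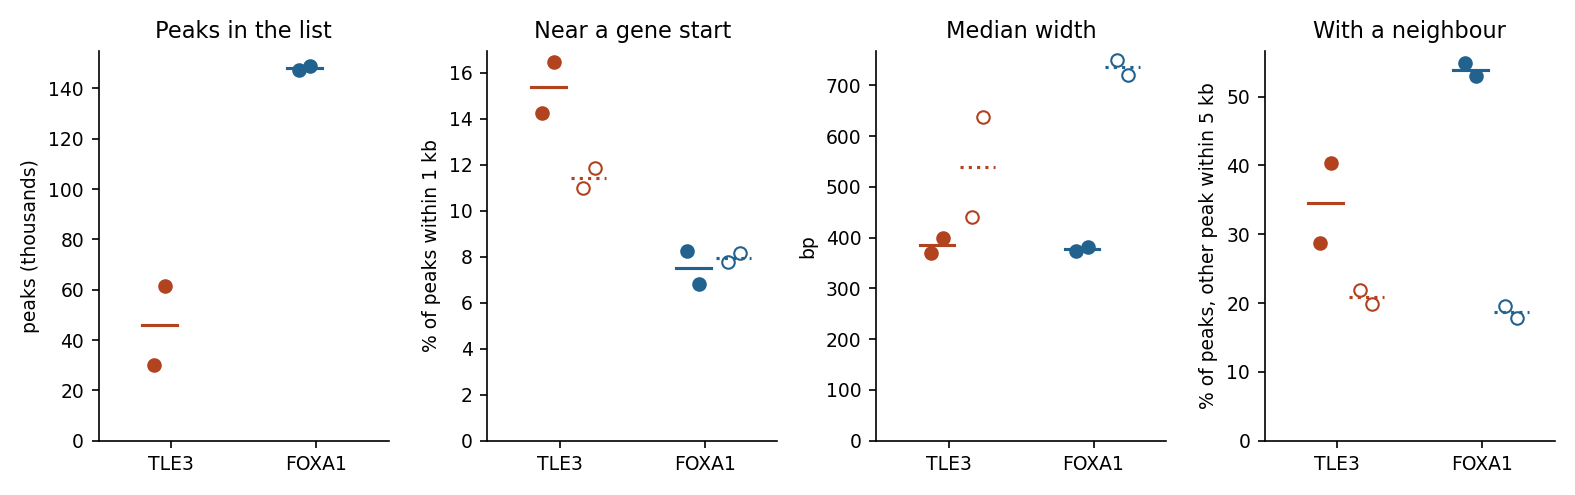
Number of peaks (in units of 1000), percent of peaks within 1 kb of a gene start, median peak width (bp) and percent of peaks with another peak of the same list within 5 kb, for the TLE3 libraries (left) and the FOXA1 libraries (right) of T47D. Each point is a library and each line a mean of 2 libraries; filled points use the full lists and open points the 20000 highest scored peaks, where the difference near starts is smaller, the difference in neighbours is of the opposite sign, and FOXA1 peaks are wider.

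Peak width did not separate the factors over the full lists, but did among the highest scored peaks. The median width was 370 and 400 bp in TLE3 replicates 1 and 2, and 374 and 382 bp in FOXA1 replicates 1 and 2, which overlap (difference 7 bp, exact permutation p = 1). With lists of 20000 peaks it was 441 and 637 bp for TLE3, against 749 and 721 bp for FOXA1, with every TLE3 library below every FOXA1 library (difference −196 bp, exact permutation p = 0.333). At the 24661 TLE3 sites that met a FOXA1 site, the median width was 595 bp for the TLE3 site and 755 bp for the best ranked FOXA1 site it met, and the TLE3 site was the narrower for 75.1% of them. Their centres were a median of 60 bp apart, and 98.6% of these TLE3 sites met a single FOXA1 site.

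FOXA1 peaks stood in groups more often than TLE3 peaks at the full lengths of the lists. Another peak of the same list within 5 kb was found for 28.7% and 40.3% of the peaks of TLE3 replicates 1 and 2, against 54.8% and 53.0% for FOXA1 replicates 1 and 2 (difference −19.4 percentage points, exact permutation p = 0.333). Longer lists give closer neighbours, and with 20000 peaks in every list the shares were 21.8% and 19.9% for TLE3 and 19.6% and 17.9% for FOXA1, a difference of 2.15 points in the other direction. Of the TLE3 sites, 24.4% stood within 5 kb of another TLE3 site, in groups of at most 10, and of the FOXA1 sites 46.96%, in groups of at most 26.

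TLE3 was found more often at grouped FOXA1 sites than at isolated ones. FOXA1 sites with no other within 5 kb held TLE3 for 18.3%, those in pairs for 23.5%, and those in groups of 5 or more for 31.7%, against 21.9% of all FOXA1 sites. Grouped sites also ranked higher, with a median rank percentile of 68.0 in groups of 5 or more and 57.0 for isolated sites. Among the upper tertile of FOXA1 sites by rank, the shares with TLE3 were 57.2% in groups of 5 or more and 43.5% for isolated sites, and among the lower tertile 8.50% and 4.81%. These are shares of sites with no test over libraries. By library, FOXA1 peaks with TLE3 had a median of 6 other FOXA1 sites within 50 kb in both FOXA1 replicates. Those without TLE3 had a median of 5 in both (mean difference 1, exact sign-flip permutation p = 0.5). The difference was 0 with the 20000 highest scored peaks of each list, and also in the upper 50% by score.

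The 5 largest groups of FOXA1 sites held 17 to 26 sites, of which 3 to 10 had TLE3. The largest, which reached into MED13L, a subunit gene of the Mediator kinase module (chromosome 12, 116253321 to 116303440), had 26 FOXA1 sites, 10 of them with TLE3. The group at LURAP1L (chromosome 9, 12771731 to 12827434) had 25, of which 3 held TLE3. A group on chromosome 4 (115627013 to 115672366), 536069 bp from NDST4, the nearest protein-coding gene, had 21, of which 6 held TLE3.

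Whether a FOXA1 site held TLE3 followed its rank. In the lowest decile of FOXA1 sites by score rank 5.11% held a TLE3 site, in the fifth 9.84%, in the eighth 28.4% and in the highest 78.9%. Single TLE3 libraries gave the same order, with 4.85% in the lowest and 79.0% in the highest decile for peaks of TLE3 replicate 1, and 15.9% and 91.3% for TLE3 replicate 2. FOXA1 peaks at TLE3 sites had a median score percentile of 86.7 in FOXA1 replicate 1 and 86.2 in FOXA1 replicate 2, against 42.9 and 43.7 for FOXA1 peaks elsewhere (mean difference 43.2 ± 0.886, SD, n = 2, exact sign-flip permutation p = 0.5). They were also wider, with medians of 667 and 649 bp with TLE3, against 346 and 358 bp without it. Among peaks of similar width (deciles weighted equally) the difference in score percentile was 2.62, against 43.2 over all peaks. Among peaks of similar score the difference in width was 86.6 bp, against 306 bp over all peaks. Each difference was smaller where the other measure was alike, most of all the difference in score.

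In the other direction, the share of TLE3 sites with FOXA1 was 69.1% in the lowest decile of TLE3 rank, 86.9% in the fifth and 99.7% in the highest. TLE3 peaks at FOXA1 sites had a median score percentile of 55.4 and 60.1 in TLE3 replicates 1 and 2, against 25.4 and 29.9 for TLE3 peaks elsewhere (mean difference 30.1 ± 0.100, SD, n = 2, exact sign-flip permutation p = 0.5). Across the TLE3 sites with FOXA1, the rank of the TLE3 site and that of the best FOXA1 site it met had a Spearman correlation of 0.55, a description over 24661 sites that share the same 4 libraries.

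**Figure D2:**
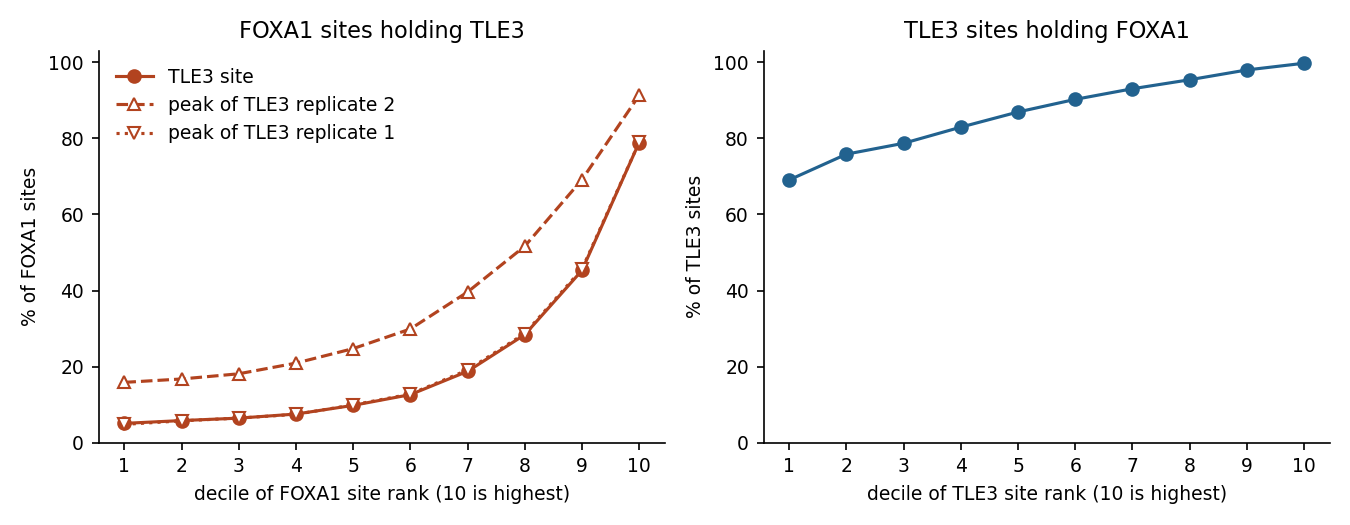
Left, percent of T47D FOXA1 sites that held a TLE3 site (filled circles) or a peak of a single TLE3 library (open triangles), by decile of FOXA1 site rank. Right, percent of TLE3 sites that held a FOXA1 site, by decile of TLE3 site rank. TLE3 was at 5.11% of the lowest and 78.9% of the highest decile of FOXA1 sites, and FOXA1 at 69.1% and 99.7% of TLE3 sites.

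Many FOXA1 sites without a TLE3 site carried a peak of the longer TLE3 list. Of all FOXA1 sites, 24334 (21.6%) met peaks of both TLE3 libraries, 437 (0.388%) of TLE3 replicate 1 alone, 18265 (16.2%) of TLE3 replicate 2 alone and 69634 (61.8%) of neither. Of the 2378 FOXA1 sites of the highest decile without a TLE3 site, 1418 (59.6%) met a peak of 1 TLE3 library. The highest ranked FOXA1 site without TLE3 lay 13409 bp from CYP7A1, the rate-limiting enzyme of bile acid synthesis (chromosome 8, 58512971 to 58514175), with scores at the 99.88 and 99.98 percentile of FOXA1 replicates 1 and 2 and no peak in either TLE3 list. The next were centred 15188 bp from CRYZ, a quinone reductase gene (chromosome 1, 74689516 to 74691079), and 80 bp from EXOSC2, an RNA exosome subunit gene (chromosome 9, 130693201 to 130694158), again with no TLE3 peak. Of the 8 best ranked FOXA1 sites without TLE3, those nearest to TECRL and LRRC4C met a peak of TLE3 replicate 2, at its 68.3 and 83.3 percentile. FOXA1 sites without TLE3 lay a median of 27698 bp from the nearest TLE3 site, and 16.8% lay within 5 kb of one.

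The highest ranked FOXA1 sites with TLE3 were mostly far from starts. After the site in DNPEP (chromosome 2, 219398513 to 219399640), the second lay 69499 bp from the nearest start on chromosome 13 (81873946 to 81874983), where SPRY2, a feedback inhibitor of receptor tyrosine kinases, is the nearest protein-coding gene at 1533338 bp. Its TLE3 scores were at the 99.99 and 99.97 percentile of TLE3 replicates 1 and 2. The third lay inside CTPS2, a CTP synthase gene (chromosome X, 16662019 to 16663505), and the seventh inside AFF4, a scaffold gene of the super elongation complex (chromosome 5, 132905586 to 132906717).

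The share of FOXA1 sites with TLE3 that lay near gene starts was higher at low FOXA1 rank. Over all ranks, 11.4% of FOXA1 sites with TLE3 and 6.74% of those without it lay within 1 kb of a start. By library, FOXA1 peaks with TLE3 lay there for 13.3% in replicate 1 and 11.6% in replicate 2, against 7.10% and 5.80% of those without (mean difference 6.03 percentage points ± 0.255, SD, n = 2, exact sign-flip permutation p = 0.5). In the lowest decile of FOXA1 rank the shares were 35.7% with TLE3 and 7.63% without, in the sixth 15.5% and 6.34%, and in the highest 7.30% and 11.7%. The order was thus turned round at the top of the list, where sites with TLE3 were the less frequent near starts. Both FOXA1 libraries showed this, with 45.3% and 33.1% near a start in their lowest score decile with TLE3 against 9.09% and 6.67% without, and 6.93% and 7.64% in their highest with TLE3 against 10.1% and 10.3% without. Among the 20000 highest scored peaks the mean difference was −3.18 points. Averaged over score deciles with equal weight for each, it was 14.5 points. That average gives low deciles much weight, as FOXA1 replicate 1 had 798 peaks with TLE3 in its lowest decile and 11141 in its highest. Without deciles the difference was 2.89 points with centres within 250 bp, 9.12 with sites from either replicate and 9.17 without TLE3 replicate 1.

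TLE3 sites with FOXA1 were likewise near starts more often at low rank. Of these, 18.0% of those in the lowest decile of TLE3 rank and 4.98% of those in the highest lay near a start. Without FOXA1 the share was 31.1% in the lowest decile and 32.8% in the ninth, while the highest held only 8 such sites. By library, 11.2% and 12.9% of the peaks of TLE3 replicates 1 and 2 with FOXA1 lay near a start, against 31.6% and 25.3% of those without (mean difference −16.4 percentage points ± 5.72, SD, n = 2, exact sign-flip permutation p = 0.5). With 20000 peaks a list it was −9.58 points. Among the 8 best ranked TLE3 sites without FOXA1, those at MYRIP (65 bp), BNIP3 (3 bp), KCNAB2, a potassium channel subunit gene (17 bp), and SCML2, a Polycomb group gene (57 bp), were centred at a start. Those at CHTF18, LARP1, TH and EVI5L lay 4959 to 41353 bp from the nearest listed start. At LARP1, TH and EVI5L a peak of FOXA1 replicate 1, below its 60 percentile, met the site.

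MDA-MB-453 and SKBR3, both breast cancer lines without the estrogen receptor, give a readout that the split by T47D TLE3 did not use. T47D FOXA1 sites with TLE3 were FOXA1 sites in MDA-MB-453 for 85.7% and in SKBR3 for 73.1%, against 58.9% and 42.2% of those without TLE3. A FOXA1 site in neither line was found for 8.22% with TLE3 and 30.7% without. By library, FOXA1 peaks with TLE3 met a FOXA1 site of at least 1 other line for 88.8% in replicate 1 and 91.1% in replicate 2, against 62.4% and 58.1% of those without (mean difference 29.7 percentage points ± 4.60, SD, n = 2, exact sign-flip permutation p = 0.5). Rank moved with this share as well. Averaged over score deciles with equal weight for each, the difference was 14.2 points, and with 20000 peaks a list it was 2.11 points. In the lowest decile of FOXA1 rank 58.0% with TLE3 and 38.9% without were FOXA1 sites in MDA-MB-453, and in the highest 95.5% and 89.8%. For SKBR3 these were 27.8% and 20.8% in the lowest decile, and 91.2% and 91.0% in the highest. TLE3 itself was found in MDA-MB-453 at 45.1% of T47D FOXA1 sites with TLE3 and at 6.01% of those without, and in the highest decile at 63.6% and 12.3%.

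**Figure D3:**
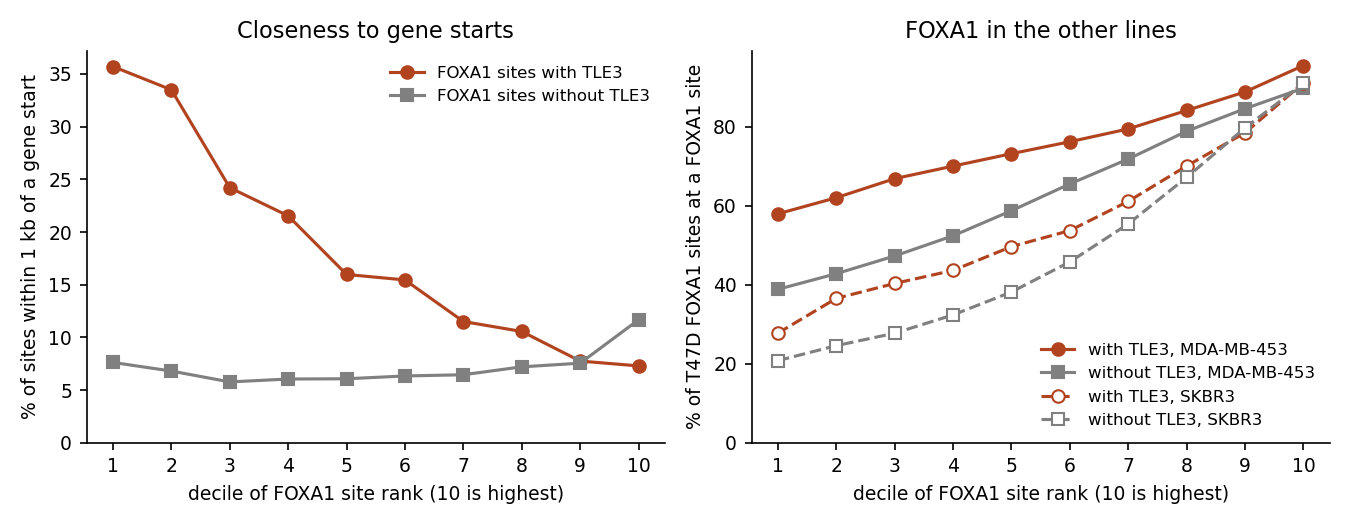
T47D FOXA1 sites with TLE3 (red-brown circles) and without TLE3 (grey squares) by decile of FOXA1 rank. Left, percent within 1 kb of a gene start, which is 35.7% with TLE3 and 7.63% without in the lowest decile and 7.30% and 11.7% in the highest. Right, percent that met a FOXA1 site of MDA-MB-453 (solid) or SKBR3 (dashed).

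Chromosomes differed little in the share of FOXA1 sites with TLE3, apart from those rich in genes. It lay between 19.4% on chromosome 8 and 23.6% on chromosome 15 for 19 of the 23 chromosomes, and was 26.2% on chromosome 17, 27.1% on chromosome 16, 29.8% on chromosome 22 and 31.2% on chromosome 19. The same 4 chromosomes had the lowest shares of TLE3 sites with FOXA1, at 80.3%, 79.5%, 80.2% and 76.2% in that order, against 87.0% of all TLE3 sites.

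Most protein-coding genes had sites of both factors nearby. Of 19974 genes, 14859 (74.4%) had a TLE3 and a FOXA1 site within 50 kb, 4113 (20.6%) a FOXA1 site alone, 64 (0.320%) a TLE3 site alone and 938 (4.70%) neither, so the background was 74.7% of genes with a TLE3 site and 95.0% with a FOXA1 site. Within 10 kb it was 50.3% and 80.4%. By library, 75.5% and 90.2% of genes had a peak of TLE3 replicates 1 and 2 within 50 kb, and 96.2% and 96.3% one of FOXA1 replicates 1 and 2 (difference −13.4 percentage points, exact permutation p = 0.333). With equally long lists the difference was 2.04 points, and it was −6.02 points without TLE3 replicate 1 and −20.8 without TLE3 replicate 2. Having a TLE3 site followed the number of FOXA1 sites, from 37.2% of genes with 1 to 2 FOXA1 sites to 99.9% of genes with over 20. Genes with both factors were longer, with a median of 29.0 kb against 17.8 kb for FOXA1 alone, and neighbouring genes share sites, so genes are not independent.

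Luminal genes had many sites of both factors. All 23 luminal identity genes, all 18 estrogen response genes and all 20 luminal transcription factor genes had a TLE3 site within 50 kb (background 74.7%) and a FOXA1 site (background 95.0%), and within 10 kb 21, 17 and 20 of them had a TLE3 site (background 50.3%). The median luminal identity gene had 8 TLE3 and 17 FOXA1 sites within 50 kb, against 2 and 6 over all genes, and a median of 40.0% of its FOXA1 sites held TLE3, against 20% over all genes. In the other lists this median lay between 17.4% for WNT and TCF genes and 32.3% for basal identity genes, with 30.6% for estrogen response, 25.7% for luminal transcription factors and 27.3% for genes of other cell types. The median estrogen response gene had 6 TLE3 and 15 FOXA1 sites. Among all genes with 11 to 20 FOXA1 sites, 97.8% had a TLE3 site, and the median share of FOXA1 sites with TLE3 was 25%. The luminal and estrogen response lists were not compared with genes of similar FOXA1 number. These lists overlap, for example in ESR1, FOXA1 and XBP1, and were chosen with earlier results of these data known.

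FOXA1 itself had peaks of both factors in every library, 15 and 23 of TLE3 replicates 1 and 2 and 33 and 31 of FOXA1 replicates 1 and 2 within 50 kb. The best TLE3 site there (chromosome 14, 37640709 to 37641816, 46013 bp from the gene) was at the 99.6 and 99.8 percentile, and 14 of 26 FOXA1 sites (53.8%) held TLE3. Of all FOXA1 sites 21.9% did. XBP1, a secretory pathway factor induced by estrogen, had 11 and 18 TLE3 peaks and 28 and 24 FOXA1 peaks, and 10 of its 21 FOXA1 sites (47.6%) held TLE3. The best ranked TLE3 site lay 22173 bp away (chromosome 22, 28821502 to 28823984). GATA3, the zinc finger factor of luminal cells, had 8 and 9 TLE3 peaks and 25 and 22 FOXA1 peaks, with TLE3 at 7 of 20 FOXA1 sites (35%). TLE3 peaks were fewer than FOXA1 peaks in every library at each of these 3 genes. The TLE3 lists are also shorter as a whole, with 30170 and 61391 peaks against 147283 and 149015. Lower TLE3 counts at a gene are thus not a result about that gene.

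The receptor genes had many FOXA1 sites, and a smaller share of them held TLE3 than at the 3 genes above. Over all FOXA1 sites the share was 21.9%, and its median over genes with over 20 FOXA1 sites was 22.2%. ESR1 lay slightly above both values and PGR below them. ESR1, the estrogen receptor gene, had 16 and 37 TLE3 peaks against 86 and 76 FOXA1 peaks, and 15 of 63 FOXA1 sites (23.8%) held TLE3. PGR, the progesterone receptor gene and an estrogen target, had 7 and 14 TLE3 peaks against 48 and 40 FOXA1 peaks, and 5 of 36 FOXA1 sites (13.9%) held TLE3. At SPDEF TLE3 was at 9 of 15 FOXA1 sites (60%), and at KRT8, a luminal keratin gene, at 10 of 19 (52.6%). GREB1, an estrogen receptor cofactor gene and target, had 12 and 23 TLE3 peaks against 46 and 52 FOXA1 peaks, with TLE3 at 12 of 40 FOXA1 sites (30%). Long genes gather more sites, and ESR1 spans 473 kb while SPDEF spans 18.5 kb.

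TLE3, the corepressor gene itself, had 7 and 8 TLE3 peaks and 15 and 16 FOXA1 peaks. TLE3 was at 7 of its 13 FOXA1 sites (53.8%), against 21.9% of all FOXA1 sites. Its best TLE3 site lay inside the gene (chromosome 15, 70093207 to 70094177), at the 99.7 and 99.9 percentile of TLE3 replicates 1 and 2. Of the 18 genes of TLE corepressors and partners, 16 had a TLE3 site within 50 kb (background 74.7%) and 18 a FOXA1 site (background 95.0%). Within 10 kb 15 had a TLE3 site (background 50.3%). RUNX1, a DNA-binding partner of TLE proteins, had TLE3 at 8 of 25 FOXA1 sites (32%), with the best inside the gene (chromosome 21, 34845423 to 34847023) at the 99.8 and 99.9 percentile. HDAC3, a histone deacetylase gene, had no TLE3 site and 6 FOXA1 sites, with 0 and 2 TLE3 peaks, and RUNX3 none and 1 FOXA1 site, with 1 and 1 TLE3 peaks that did not meet.

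Genes of the pathways that use TLE proteins were near the background in TLE3 within 50 kb and above it within 10 kb. A TLE3 site lay within 50 kb of 15 of 18 NOTCH and HES genes and 14 of 18 WNT and TCF genes (background 74.7%). Within 10 kb it was 11 of 18 and 12 of 18 (background 50.3%). HES1, a repressor that binds Groucho proteins, had 10 and 13 TLE3 peaks and 24 and 24 FOXA1 peaks. Its best TLE3 site (chromosome 3, 194133629 to 194136674) was centred 996 bp from the gene and reached into it. CTNNB1, encoding beta-catenin, had no TLE3 site beside 11 FOXA1 sites, with 0 and 2 peaks of TLE3 replicates 1 and 2, and NOTCH2, a NOTCH receptor gene, none beside 10, with 0 and 5 TLE3 peaks. TCF7L1, a repressive TCF gene, had TLE3 at 8 of 19 FOXA1 sites (42.1%, against 21.9% of all FOXA1 sites).

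Of the other lists, a TLE3 site lay near 16 of 18 progestin and androgen response genes, 18 of 20 basal identity genes, 15 of 18 genes of epithelial-mesenchymal transition and TGF-beta, 15 of 20 cell cycle genes, 16 of 20 housekeeping genes and 16 of 20 genes of other cell types within 50 kb (background 74.7%). Within 10 kb (background 50.3%) these counts were, in the same order, 16 of 18, 12 of 20, 12 of 18, 11 of 20, 13 of 20 and 6 of 20. KRT5, a basal keratin gene, had no TLE3 site and 1 FOXA1 site at the 33.8 percentile by mean rank, with 0 and 2 TLE3 peaks and 1 and 1 FOXA1 peaks. TP63, the master regulator of basal epithelium, had many sites across a gene of 301 kb. It had 20 TLE3 sites, and TLE3 was at 20 of 56 FOXA1 sites (35.7%, against 21.9% of all FOXA1 sites). The lists hold binding and not expression, so the identity of the cells could not be checked by marker levels. Against a background of 74.7%, all 8 luminal markers had a TLE3 site within 50 kb, of the basal markers 3 of 4, and of the markers of other cell types 5 of 5, with 1 to 16, 0 to 20 and 1 to 4 TLE3 sites.

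**Figure D4:**
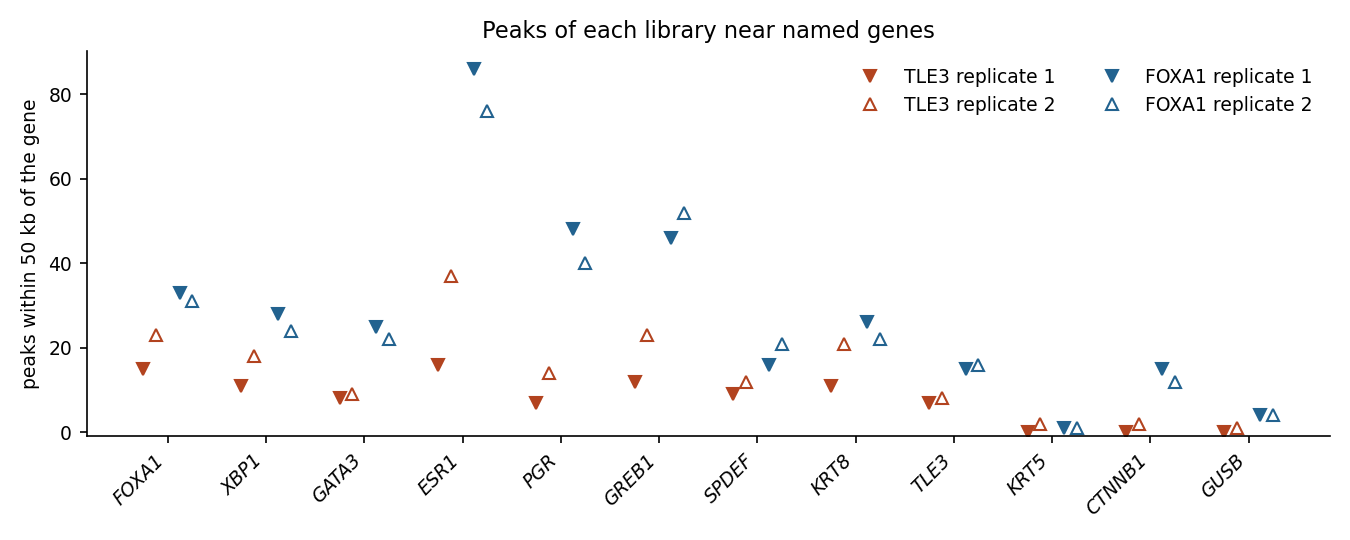
Number of peaks within 50 kb of named genes in each T47D library, TLE3 in red-brown and FOXA1 in blue; downward triangles are replicate 1 and open upward triangles replicate 2. FOXA1 peaks outnumber TLE3 peaks in both replicates at the luminal genes on the left, and KRT5, CTNNB1 and GUSB on the right have 0 peaks of TLE3 replicate 1. The FOXA1 lists are longer than the TLE3 lists over the whole genome.

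The genes with the most TLE3 sites were long. GSE1, a component gene of a histone deacetylase complex, had 44 TLE3 sites, and 39 of its 62 FOXA1 sites held TLE3. NAALADL2 had 43, and 40 of its 196 FOXA1 sites held TLE3. The genes span 507 and 1370 kb. At GSE1 the share of FOXA1 sites with TLE3 was thus 62.9%, and at NAALADL2 20.4%, against 21.9% of all FOXA1 sites. Among genes with no TLE3 site, SEMA3D, a class 3 semaphorin gene, had the most FOXA1 sites, at 23, followed by ANKS1A, CALCR, which encodes the calcitonin receptor, RAB3GAP2 and RUNX1T1 with 17 each. SEMA3D had 0 and 3 TLE3 peaks against 39 and 32 FOXA1 peaks.

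Promoters differed in base composition and motif by which factor was there. Of 22132 promoter windows of protein-coding genes (250 bases before to 50 after a start), 2251 met a site of both factors, 3906 a FOXA1 site without TLE3, 1424 a TLE3 site without FOXA1 and 14551 neither. A forkhead motif was in 10.97% of windows with both factors (95% exact binomial interval 9.71% to 12.3%), in 12.54% with FOXA1 without TLE3 (11.5% to 13.6%), in 1.12% with TLE3 without FOXA1 (0.644% to 1.82%) and in 6.93% with neither (6.53% to 7.36%), against 7.96% of all. These intervals cover counting error only, and windows of 1 gene can overlap. A TLE3 site over a window without FOXA1 can meet a FOXA1 site outside it, as for 245 of the 1424 windows, of which 2.04% held the motif, against 0.933% of the other 1179. Windows with TLE3 without FOXA1 were rich in G and C, with a median of 72.3%, against 66.0% with both factors, 61.0% with FOXA1 without TLE3 and 60.7% with neither. Among windows of 70% G+C and over, a forkhead motif was in 7.97% with both factors, 7.52% with FOXA1 without TLE3, 0.793% with TLE3 without FOXA1 and 1.13% with neither.

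Other motifs were compared in the same windows, on both strands. GGGCGG, the core of GC boxes, was in 72.8% of windows with both factors, 62.5% with FOXA1 without TLE3, 84.1% with TLE3 without FOXA1 and 49.3% with neither, and in 56.3% of all. AACCACA, bound by RUNX proteins, was in 3.29%, 3.28%, 2.18% and 4.02% in the same order (3.70% of all), and CTTTGAT, bound by TCF and LEF proteins, in 1.20%, 1.87%, 1.05% and 2.23% (1.99% of all). AGATAA, bound by factors of the GATA3 family, was in 5.06%, 6.32%, 2.25% and 9.28% (7.88% of all). None of these 3 was more frequent at promoters with both factors than at promoters with neither. The further motifs searched differed in direction. CGGAAG was in 29.19% of windows with both factors and 19.25% with neither, and GCCNNNGGC (N is any base) in 33.32% and 25.52%. AACCGG and CGCATGC were also more frequent with both factors than with neither, while TGANTCA and GGTCA were not. These classes differed in median G+C, and these other motifs were not compared among windows of similar G+C. TGTTTAC alone was in 4.89% of windows with both factors and 1.99% with neither (2.85% of all). A match describes the letters of a window and is not a bound site.

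**Figure D5:**
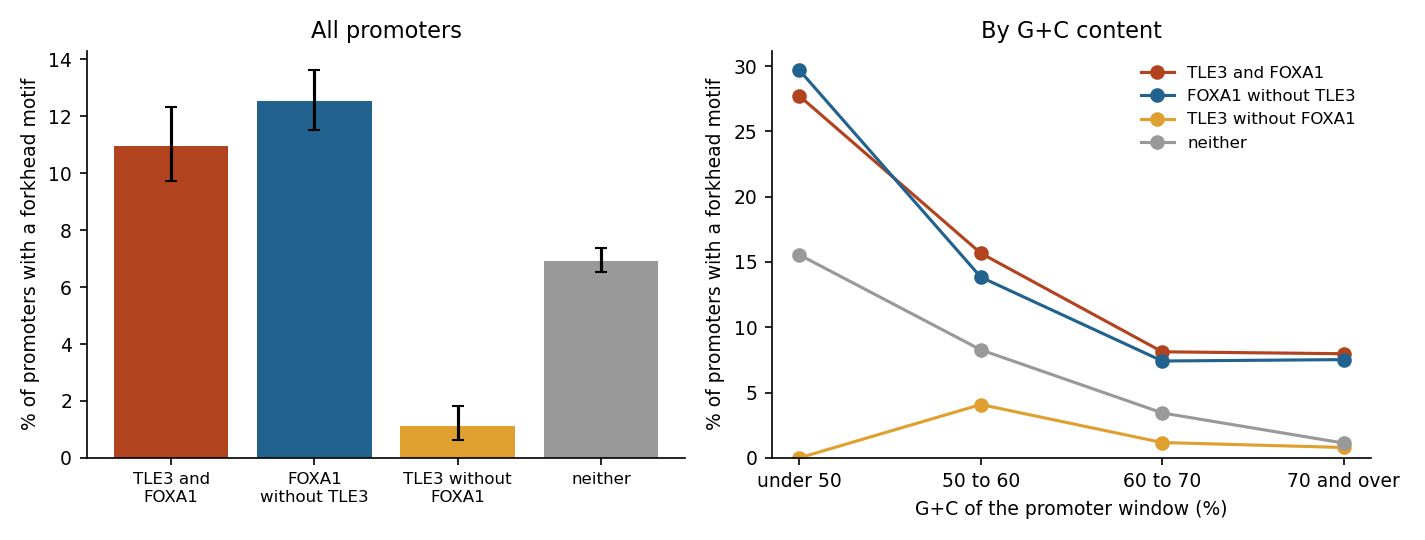
Percent of promoter windows (300 bases) with a forkhead motif, by which T47D sites met the window, over all windows (left, with 95% exact binomial intervals) and by G+C content of the window (right). Windows with TLE3 without FOXA1 held the motif for 1.12% and windows with both factors for 10.97%; the point for TLE3 without FOXA1 under 50% G+C rests on 16 windows.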

How the data were processed

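TLE3 and FOXA1 were mapped by chromatin immunoprecipitation and sequencing in T47D with 2 replicates each. Per the submitters' processing notes, the tools were Trim Galore, MACS2, BWA 0.7.5a and SAMtools, with hg38 as the build. How MACS2 was set and which control it had is not given in the sources used here. The deposited lists hold 1 set of peaks per library with a score per peak, the authors' own, of unnamed quantity. It was used within a list only. Peak centres stand for positions. The lists hold no counts, so depth is unknown. Only chromosomes 1 to 22 and X were used, which dropped 7 T47D peaks.

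Samples were grouped by title. Merging, overlap (at least 1 bp), distances and ranks were computed with Python 3.11.15, numpy 2.4.6, pandas 2.3.3 and scipy 1.17.1, and the functions were tested on simulated data. Site rank is the mean of the percentiles of both replicates. Genes are those of the RefSeq table for GRCh38.p14. Gene starts came from the RefSeq promoter table, with 34961 starts, entries for 15812 of 19974 protein-coding genes and none on chromosome 8; 715 protein-coding genes lie there. All 231 entries of 12 gene lists matched. Tests were exact two-sided permutations over libraries, with a threshold of 0.05.

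The members, lists and tests were chosen with earlier results of these data known. Genes named are a fixed set (FOXA1, TLE3, ESR1, GATA3, PGR, XBP1, KRT8, KRT18, KRT5), up to 4 of each list with the most TLE3 sites and up to 3 with none, those nearest to the 8 best ranked sites of each class, the 8 with the most TLE3 sites and the 8 with the most FOXA1 sites among those with none, those at the 5 largest groups of FOXA1 sites, and the 6 best ranked promoters with a forkhead motif. The MYRIP and BNIP3 promoters were chosen after their values were seen. Only some of these names are printed, and some genes are not reported here. Alternatives were the 20000 highest scored peaks, the upper 50% by score, each library left out, other overlaps and windows, sites of either replicate, score and width deciles, and a replicate block. Differences within deciles were averaged with equal weight for each decile.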

Additional observations from a re-analysis of the deposited data

Results flagged for a closer look

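The difference between TLE3 and FOXA1 in closeness to gene starts had opposite signs in T47D and MDA-MB-453. In T47D 14.3% and 16.5% of TLE3 peaks and 8.23% and 6.80% of FOXA1 peaks lay within 1 kb of a start. In MDA-MB-453 it was 5.98% and 4.38% of TLE3 peaks and 7.54% and 7.22% of FOXA1 peaks. Both TLE3 libraries thus lay above both FOXA1 libraries in T47D and below both in MDA-MB-453, and the difference between factors was 10.05 percentage points higher in T47D (7.85 against −2.20). Permuting the line labels within each factor gave an exact two-sided p = 0.222, where 0.0556 is the smallest that 36 arrangements can give, so the difference between the lines did not pass the test. SKBR3 had the sign of T47D, with a difference between factors of 3.65 points. There 6.17% and 13.1% of TLE3 peaks and 5.99% and 5.98% of FOXA1 peaks lay near a start, so TLE3 replicate 1 was close to FOXA1.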

How the results depend on the processing

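None of the 13 results with a test could pass the threshold with 2 libraries a group. Of 146 alternative values over 16 results, 129 kept their direction or stayed within the spread, 6 turned their direction and 11 moved beyond the spread. Differences of 0 in the number of nearby FOXA1 sites were counted as kept. So were all values with a replicate block, which pairing cannot change. For promoters with a forkhead motif the binomial interval served as the spread. With the 20000 highest scored peaks, the difference of TLE3 from FOXA1 was −196 bp in median width, 2.15 percentage points in peaks with a neighbour and 2.04 points in genes with a peak, the difference of FOXA1 peaks with TLE3 from those without near starts was −3.18 points, and 55.3% of FOXA1 sites held TLE3 and 58.3% of TLE3 sites FOXA1. Peak numbers are then equal, so that ratio was not run. In the upper 50% by score the near-start difference at FOXA1 peaks was −0.46 points. The cause was not tested, beyond the shorter lists themselves. Leaving out each library gave widths of −8 to 22 bp, with −8 without TLE3 replicate 2, FOXA1 sites with TLE3 of 17.0% to 37.8%, with 37.8% without TLE3 replicate 1, and TLE3 sites with FOXA1 of 71.2% to 92.9% (71.2% without TLE3 replicate 1). TLE3 sites with FOXA1 were 77.8% with centres within 250 bp and 81.5% with sites from either replicate. Promoters with both factors held a forkhead motif for 24.6% with the 20000 highest scored peaks, 19.1% in the upper 50%, 8.29% with sites from either replicate, and 8.91% to 11.7% leaving out each library; these and the ends of all genes in place of starts were chosen after seeing the data. A replicate block paired same-numbered libraries by number only and leaves each mean difference unchanged by construction. The log2 ratio of peak numbers was thus again −1.78 (exact sign-flip permutation p = 0.5) and the near-start difference 7.85 points. Depth is unknown, so a site without TLE3 may hold TLE3 below detection.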
